A study of Mus musculus with 12 samples.

Results

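The diet by genotype interaction asks whether high fat diet moves a gene by a different amount in KO mice than in WT mice. It was computed for each gene as high fat minus normal chow in KO mice, minus the same difference in WT mice, so a positive value means that the KO difference lay above the WT difference. Genes entered the test by a minimum level and not by their diet response. Of the 22923 gene symbols listed in all 12 libraries, the 11945 that reached 1 FPKM in 3 or more libraries were tested, where FPKM is a fragment count divided by the length of the transcript and the size of the library. This unit was taken from the tools named in the processing notes and from the values, since no file names it. Of the 11945 genes, 18 reached 1 FPKM in the 3 samples of a single group alone and so entered through that group. Muscle from the proximal hind leg of 12 male mice aged 22 weeks, of the strain FVB in the labels and FVB/N in the methods, was sequenced, with 3 mice per group. Both WT and KO mice were fed normal chow or a high fat diet and are called chow-fed and fat-fed here, where the high fat diet (5.1 kcal per gram, against 3.1 kcal per gram of chow) began at 6 weeks of age and lasted 16 weeks. KO mice lack Cryab, which encodes αB-crystallin, and Hspb2, both everywhere in the body, and WT mice are their littermates, named Flox in the sample titles. An effect of the loss in muscle and in other organs, and of either deleted gene, cannot be told apart here.

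αB-crystallin and HspB2 are small heat shock proteins that are abundant in striated muscle, where they bind unfolding proteins and associate with desmin and the Z-disc. When dietary fat is in excess, muscle takes up fatty acids through carriers such as Cd36 and Slc27a1, links them to coenzyme A, moves them into mitochondria by the carnitine shuttle and oxidises them. Many genes of this route are targets of the PPAR nuclear receptors, while immune cells, fat cells, tendon and nerve contribute RNA of their own to a piece of muscle.

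The genes of fatty acid uptake and beta-oxidation shared 1 sign of the interaction, and 4 promoters are shown so that the sequence before such genes can be read beside their values. The first 3 belong to that list and the fourth to Gadl1, the gene with the lowest interaction p. Each run holds the 250 bases before the start in the RefSeq promoter table of build GRCm38.p6, written 5′ to 3′ along the gene, with the letters AGGTCA, or TGACCT where they lie on the other strand, in capitals. They are the core letters recognised by nuclear receptors including the PPARs. The windows are chr3:153944644-153944893 on the minus strand for Acadm, chr11:70015429-70015678 on the minus strand for Acadvl, chr7:140116422-140116671 on the minus strand for Echs1 and chr9:115909205-115909454 on the plus strand for Gadl1.
Acadm: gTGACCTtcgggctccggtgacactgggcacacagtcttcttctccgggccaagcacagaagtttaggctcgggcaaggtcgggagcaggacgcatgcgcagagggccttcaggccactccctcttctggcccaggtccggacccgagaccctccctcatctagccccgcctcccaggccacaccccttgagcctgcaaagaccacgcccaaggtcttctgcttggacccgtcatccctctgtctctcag
Acadvl: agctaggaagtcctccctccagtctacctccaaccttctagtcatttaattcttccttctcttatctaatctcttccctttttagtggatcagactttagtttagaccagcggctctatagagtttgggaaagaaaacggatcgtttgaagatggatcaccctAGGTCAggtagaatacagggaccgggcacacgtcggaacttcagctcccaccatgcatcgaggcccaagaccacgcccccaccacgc
Echs1: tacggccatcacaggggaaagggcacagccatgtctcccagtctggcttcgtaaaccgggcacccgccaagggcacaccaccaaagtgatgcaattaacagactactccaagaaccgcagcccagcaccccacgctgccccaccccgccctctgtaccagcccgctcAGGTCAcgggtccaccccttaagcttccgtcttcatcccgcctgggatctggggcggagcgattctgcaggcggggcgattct
Gadl1: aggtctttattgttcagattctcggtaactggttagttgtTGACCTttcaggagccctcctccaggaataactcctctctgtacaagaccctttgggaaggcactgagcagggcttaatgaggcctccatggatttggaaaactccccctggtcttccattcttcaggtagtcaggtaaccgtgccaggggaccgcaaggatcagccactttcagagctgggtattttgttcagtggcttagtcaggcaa
Of the 28 tested fatty acid genes, 25 had a promoter in the table, and 4 (16%) held AGGTCA on either strand, namely these 3 and Cd36. Over all tested genes 1122 of 8504 promoters (13.2%) held it, and so did 3 of 19 (15.8%) among the 24 genes with the lowest p. The longer direct repeat AGGTCANAGGTCA, searched on both strands, overlaps the short motif by its own letters. It was in 3 of the 8504 promoters (0.0353%) and in none of the fatty acid promoters. A match is a description of these letters and not a binding site.

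The deleted genes stood with the genotype in the titles, whereas a separate genotype label goes against the title in 6 of the 12 samples. Cryab lay between 412 and 837 FPKM in the 6 samples titled WT and between 0.845 and 1.75 FPKM in the 6 titled KO. Hspb2 lay between 81.5 and 103 FPKM in WT samples and between 0.353 and 1.92 FPKM in KO samples. For Cryab the diet difference was 0.56 on the log2(FPKM + 1) scale in WT mice and 0.04 in KO mice, an interaction of -0.52 with a standard error of 0.24 and a 95% interval of -1.04 to 0.00, and its adjusted p in limma was 0.80. Hspb2 had an interaction of 0.32 (standard error 0.30, limma adjusted p 0.91). In the KO samples both genes were at or below 1.92 FPKM, where log2(FPKM + 1) understates a change.

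3 libraries stood apart from the rest, all under chow, namely replicate 2 of the WT mice and replicates 1 and 3 of the KO mice. The 20 tested B cell genes summed to between 105.8 and 121.2 FPKM in these 3 and to between 2.77 and 12.1 FPKM in the other 9. The 26 T cell genes with values, tested or not, summed to between 96.3 and 108.7 FPKM in the 3 and to between 5.27 and 9.58 FPKM in the other 9. Among defining markers, Ms4a1 was 6.97, 7.61 and 8.96 FPKM in the 3 and at most 0.323 FPKM elsewhere, and Ucp1, the uncoupling protein of brown fat, was 16.2, 7.5 and 6.67 FPKM and at most 0.746 FPKM elsewhere. KO mice under chow therefore held 2 such libraries, WT mice under chow 1, and neither high fat group any. In bulk muscle fewer cells of a type and less RNA per cell cannot be told apart. Leaving out these 3 libraries keeps 1 KO sample under chow, whose spread is taken from the other groups. Values from this fit are given beside some of the counts and medians that it moves. Other values may depend on these libraries too. No value from this fit is given for the T cell, B cell and lymph node lists, whose own genes set these libraries apart. Values summed to between 484182 and 691621 FPKM per library without the microRNA gene Mir324, and between 10973 and 11784 genes per library reached 1 FPKM. As markers of muscle, the contractile genes of fast fibres summed to between 69820 and 127900 FPKM per library, although the skeletal actin gene Acta1 is listed at 0 in 2 libraries.

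No gene passed the adjusted threshold of 0.05 for the interaction in limma, the lowest adjusted p being 0.41. At an unadjusted p under 0.05 there were 746 genes (6.25%), of which 424 (3.55%) had a KO diet difference above the WT one and 322 (2.7%) below it. Without the 3 libraries rich in lymphoid genes the unadjusted count was 318, and without replicate 2 among chow-fed KO mice it was 1306. The median interaction over all tested genes was 0.03 (log2) and the median standard error 0.175, so that the 95% interval of a typical gene reached 0.385 to each side. Within WT mice 12 genes (0.1%) passed the adjusted threshold for diet and 970 (8.12%) the unadjusted one, 528 (4.42%) of them higher on high fat diet and 442 (3.7%) lower. The adjusted count in WT mice was 1 without the 3 libraries rich in lymphoid genes, as it was without replicate 1 or replicate 2 among chow-fed WT mice, and 32 without replicate 2 among fat-fed WT mice. Within KO mice 0 (0.0%) passed the adjusted and 1349 (11.3%) the unadjusted threshold, and the latter count was 704 and 670 without replicate 1 or 3 among chow-fed KO mice, 2481 without replicate 2, and 404 without the 3 libraries rich in lymphoid genes. The 2 diet comparisons share no sample.

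Of the 746 genes, 605 had diet differences of opposite sign in the 2 genotypes and 141 of the same sign. The choice of these genes by the interaction p favours opposite signs, so that the counts within the 746 are a description. At an unadjusted p under 0.05 the diet difference was called in WT mice alone for 311, in KO mice alone for 273, in both for 31 and in neither for 131. Of the 206 genes whose interaction was larger than 1 on the log2 scale in either direction, 110 had an unadjusted p under 0.05.

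**Figure D1:**
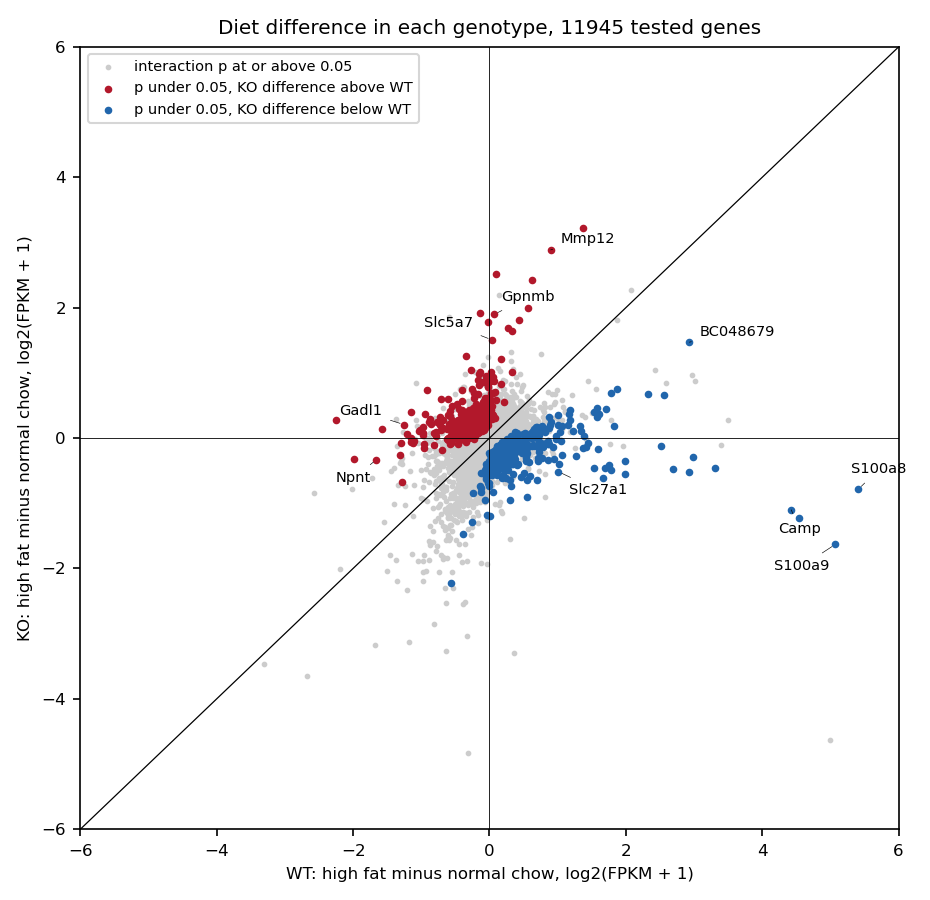
Diet difference (high fat minus normal chow, log2(FPKM + 1)) in WT mice on the horizontal axis against KO mice on the vertical axis, 1 point for each of the 11945 tested genes. Points on the diagonal had equal differences in both genotypes, the 424 red and 322 blue points had an unadjusted interaction p under 0.05 in limma, and none passed the adjusted threshold.

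The genes with the lowest p and a positive interaction were mostly lower on high fat diet in WT mice, and the same or higher on it in KO mice. Gadl1, a relative of glutamate decarboxylase, was 8.24, 6.18 and 7.63 FPKM in chow-fed WT mice and 1.61, 3.09 and 2.96 FPKM in fat-fed WT mice. Its KO values were 5.25, 6.81 and 4.42 FPKM under chow and 6.64, 6.04 and 6.54 FPKM under fat feeding. The WT groups did not overlap, and the KO groups did. The gene lies on chromosome 9 from 115909455 to 116076176 on the plus strand in the GENCODE M21 annotation of GRCm38, from which all gene positions were taken. Gadl1 fell in WT mice (log2 difference -1.25, adjusted p 0.031 in limma). In KO mice the difference was 0.21 with a standard error of 0.18, and the interaction was 1.46 with a standard error of 0.25, an interval of 0.90 to 2.02 and an adjusted p of 0.41 in limma. Rhbdl3, a rhomboid-like membrane protein, was 8.82, 6.90 and 6.6 FPKM in chow-fed WT mice and 1.95, 2.92 and 2.40 FPKM under fat feeding. The KO values of Rhbdl3 were 4.67, 6.27 and 4.03 FPKM under chow and 4.31, 4.48 and 4.99 FPKM under fat feeding. Again the WT groups were apart and the KO groups overlapped, with an interaction of 1.22 and a standard error of 0.21.

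Vipr2, a receptor for the vasoactive intestinal peptide, was 6.83, 5.24 and 4.96 FPKM in chow-fed WT mice and 3.17, 2.82 and 3.39 FPKM under fat feeding. The KO mice had 2.68, 2.99 and 1.99 FPKM of Vipr2 under chow and 3.34, 3.35 and 3.16 FPKM under fat feeding. The KO chow samples were thus below the WT chow samples and near the WT high fat samples, and both pairs of diet groups were apart. Hfe, a regulator of iron uptake, was 9.51, 9.02 and 8.53 FPKM in chow-fed WT mice and 5.08, 5.02 and 7.22 FPKM under fat feeding. In KO mice Hfe was 7.82, 7.97 and 8.22 FPKM under chow and 9.31, 12.6 and 9.48 FPKM under fat feeding. Its groups did not overlap in either genotype, and its interaction was 0.92 with a standard error of 0.19. The other genes of the 12 with the lowest p in this direction were the RIKEN genes 2610019F03Rik (1.13) and D930014E17Rik (0.53), Ttyh2 (0.58), Unc119 (1.01), Hic1 (0.57), Serf1 (0.88), Nek6 (0.89) and Ift122 (1.08), each with its interaction on the log2 scale.

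On the negative side stood genes of lipid and coenzyme A metabolism and genes of neutrophils. Slc27a1, which encodes the fatty acid transport protein FATP1, was 25.9, 30.8 and 24.4 FPKM in chow-fed WT mice and 62.3, 53.5 and 50.4 FPKM under fat feeding. In KO mice Slc27a1 was 57.0, 40.8 and 75.9 FPKM under chow and 35.3, 37.0 and 45.3 FPKM under fat feeding. The gene lies on chromosome 8 from 71568882 to 71587302 on the plus strand. All WT high fat samples lay above the WT chow samples, while 2 of the 3 KO high fat samples lay below all KO chow samples. The 2 high KO chow values of Slc27a1 were those of the libraries rich in lymphoid genes. Replicate 2 lay within the KO high fat range, and without those 3 libraries the interaction of Slc27a1 was -1.17. With all libraries its WT difference was 1.01 and its KO difference -0.52, each with a standard error of 0.19. The interaction of -1.52 had an interval of -2.13 to -0.92 and an adjusted p of 0.41 in limma. Pank1, a pantothenate kinase at the first step of coenzyme A synthesis, was 4.25, 5.01 and 3.48 FPKM in chow-fed WT mice and 9.06, 7.56 and 5.96 FPKM under fat feeding. For Pank1 the KO values were 5.75, 4.90 and 9.17 FPKM under chow and 3.91, 3.42 and 3.87 FPKM under fat feeding. The diet groups were apart in both genotypes and in opposite order, with an interaction of -1.34 and a standard error of 0.28. Ech1, an isomerase of the oxidation of unsaturated fatty acids, was 146, 152 and 145 FPKM in chow-fed WT mice and 278, 243 and 239 FPKM under fat feeding. The KO mice had 170, 159 and 177 FPKM of Ech1 under chow and 186, 198 and 192 FPKM under fat feeding. Both genotypes had higher values on high fat diet without overlap, by 0.77 (log2) in WT mice, where Ech1 rose with an adjusted p of 0.012 in limma, and by 0.19 in KO mice.

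The other genes of the 12 with the lowest p in the negative direction were Fam69b (-0.94), the arrestin domain gene Arrdc2 (-1.32), Fads6 (-0.82), the mitochondrial glutamate carrier Slc25a22 (-1.08), and the neutrophil genes S100a9, S100a8, Camp, Ngp and Lcn2, described below. Over both directions the interactions of the 24 genes ran from 0.531 to 6.71 in size. The WT diet groups were apart for 24 of the 24 and the KO diet groups for 9 of 24, where over all tested genes they were apart for 13.1% in WT mice and 16.9% in KO mice. These 24 were chosen by the p of the same contrast, so that their counts are a description.

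**Figure D2:**
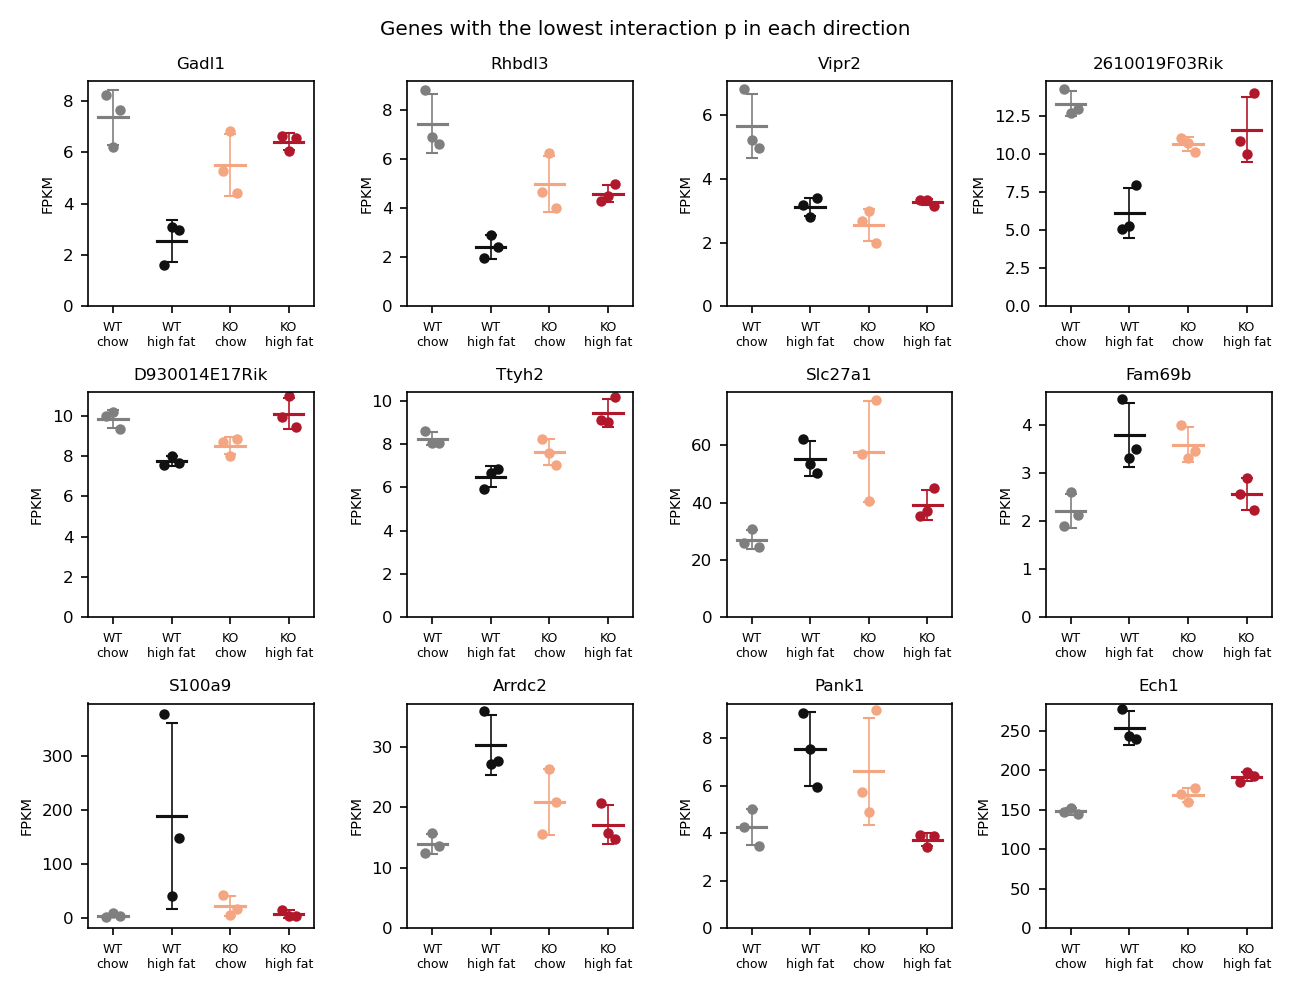
FPKM of 12 genes with the lowest interaction p, the first 6 with a positive and the last 6 with a negative interaction, in the 3 mice of each group (points), with the group mean (line) and SD (bar). In WT mice the 2 diets are apart for each gene, and in KO mice the levels on high fat diet lie near, above or below those on chow.

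A reversal, an unadjusted p under 0.05 in limma for diet in each genotype with opposite signs, was seen for 24 of the 138 genes (1.16%) with such a p in both genotypes, which is 0.201% of all tested, whereas 114 (0.954%) had the same sign. Among the 24, 20 were higher on high fat diet in KO mice and lower on it in WT mice. The other 4, Pank1, Ephx2, Slc27a1 and Fam69b, were higher on it in WT mice and lower on it in KO mice. Without the 3 libraries rich in lymphoid genes the count was 12. Leaving out replicate 2 among chow-fed KO mice gave 57, and leaving out replicate 2 among chow-fed WT mice gave 41. None of the WT differences in the 24 was larger than 1.01 and none of the KO differences larger than 0.647 on the log2 scale.

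Unc119, a carrier of lipid-modified proteins, was 10.4, 10.2 and 12.1 FPKM in chow-fed WT mice and 6.71, 6.66 and 9.39 FPKM under fat feeding. In KO mice Unc119 was 10.1, 8.03 and 10.5 FPKM under chow and 12.6, 16.5 and 13.6 FPKM under fat feeding. Every fat-fed WT sample lay below every chow-fed WT sample, and every fat-fed KO sample lay above all the other 9. Ephx2, the soluble epoxide hydrolase, was 18.3, 28.4 and 17.4 FPKM in chow-fed WT mice and 34.3, 32.6 and 29.1 FPKM under fat feeding. KO mice had 46.1, 25.8 and 55.4 FPKM of Ephx2 under chow and 25.6, 24.6 and 29.9 FPKM under fat feeding. Here the 2 high KO chow values were those of the libraries rich in lymphoid genes, and replicate 2 lay within the KO high fat range. The remaining reversed genes with the largest smaller difference were Serf1 (-0.44 in WT mice and 0.44 in KO mice), Cited4 (-0.58 and 0.42), Mllt11 (-0.40 and 0.43) and Fam69b (0.57 and -0.37).

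By the rule of non-overlap, 56 genes (0.469%) had diet groups apart in both genotypes in opposite directions, and 192 (1.61%) in the same direction.

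Genes of fatty acid uptake and beta-oxidation were higher on high fat diet in WT mice, and most showed little diet difference in KO mice. Of the 28 tested, 19 had an unadjusted interaction p under 0.05 in limma, all 19 negative, against 2.7% of all genes in this direction, and 0 passed the adjusted threshold. All 28 interactions were below 0, with a median of -0.53 (log2) where the median of all genes was 0.03. The median diet difference of the 28 was 0.62 in WT mice and 0.06 in KO mice. Without the 3 libraries rich in lymphoid genes these medians were 0.615 and 0.149. In WT mice 23 of the 28 were higher at an unadjusted p under 0.05 (4.42% of all genes), and in KO mice 2 were higher (6.56%) and 3 lower (4.73%).

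The mean log2 level of the 28 genes was 6.09, 6.06 and 5.86 in chow-fed WT mice and 6.85, 6.49 and 6.51 in fat-fed WT mice. In KO mice it was 6.12, 6.05 and 6.4 under chow and 6.11, 6.24 and 6.34 under fat feeding. The WT diets were apart, the fat-fed KO samples lay within the range of the chow-fed KO samples, and replicate 1 among fat-fed WT mice and replicate 3 among chow-fed KO mice were the highest of their groups. On normal chow the median KO minus WT difference of the 28 was 0.14, and on high fat diet it was -0.45.

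By role, the carriers and activating enzymes came first. Fabp3, the heart-type fatty acid binding protein, was 491, 481 and 311 FPKM in chow-fed WT mice and 1878, 1491 and 1280 FPKM under fat feeding. Its KO values were 384, 421 and 993 FPKM under chow and 731, 1076 and 965 FPKM under fat feeding. Fabp3 was thus higher on high fat diet in both genotypes, by 1.87 (log2) in WT mice and 0.75 in KO mice, with 1 KO chow sample among the high fat values. Acsl1, which links fatty acids to coenzyme A, had a diet difference of 0.43 in WT mice and -0.18 in KO mice, and Cd36, the fatty acid translocase, 0.45 and 0.03.

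In the carnitine shuttle, Cpt2 was 45.7, 43.2 and 39.4 FPKM in chow-fed WT mice and 82.7, 56.7 and 60.3 FPKM under fat feeding. The KO mice had 44.4, 40.7 and 50.3 FPKM of Cpt2 under chow and 42.7, 46.6 and 48.2 FPKM under fat feeding, so that the KO high fat samples lay within the KO chow range. The carrier Slc25a20 differed by 0.78 in WT mice and 0.14 in KO mice. Among the dehydrogenases of the mitochondrial spiral, Acadl differed by 1.17 and 0.38, Acadm by 0.68 and 0.17, and Acadvl by 0.71 and -0.02, each first in WT and then in KO mice. Hadha and Hadhb, the subunits of the trifunctional protein, differed by 0.68 and 0.69 in WT mice and by 0.15 and 0.14 in KO mice. Echs1, the enoyl-CoA hydratase, differed by 0.29 in WT mice and -0.20 in KO mice.

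Decr1, a reductase for unsaturated fatty acids, was 54.3, 54.7 and 50.6 FPKM in chow-fed WT mice and 117, 88.4 and 91.2 FPKM under fat feeding. In KO mice Decr1 was 57.3, 54.0 and 63.5 FPKM under chow and 69.7, 71.5 and 77.9 FPKM under fat feeding. It rose in WT mice by 0.87 (adjusted p 0.018 in limma), and the KO difference of 0.32 was in the same direction without overlap of the groups. The thioesterase Acot2 and the isomerase Eci1 had interactions of -0.99 and -0.91, with standard errors of 0.29 and 0.25.

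The count of 19 was 11 without replicate 1 among fat-fed WT mice or replicate 3 among chow-fed KO mice, and 12 without replicate 3 among chow-fed WT mice or replicate 1 among fat-fed KO mice. Without the 3 libraries rich in lymphoid genes the count was 2, the median interaction -0.44, and 27 of the 28 interactions were below 0. With the mean level of the T and B cell genes as a covariate the count was 15 and the median -0.50.

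**Figure D3:**
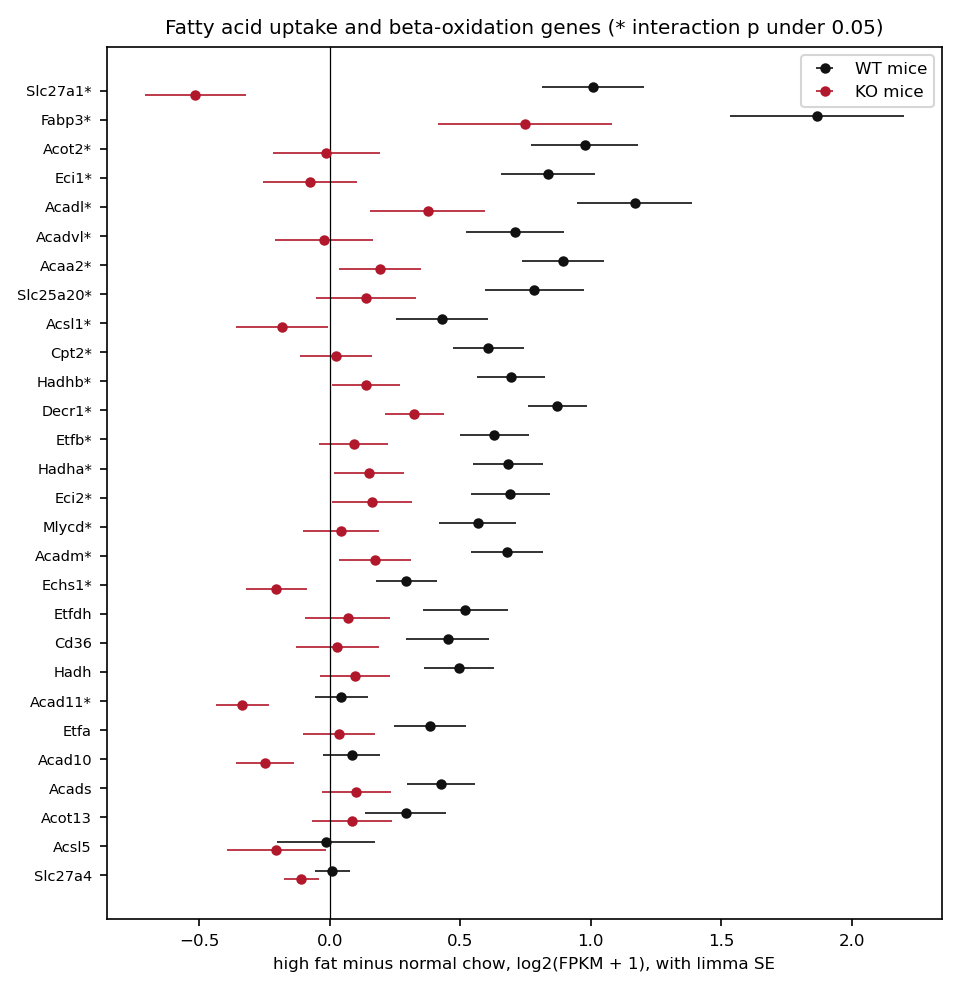
Diet difference of the 28 genes of fatty acid uptake and beta-oxidation, high fat minus normal chow on the log2(FPKM + 1) scale, in WT mice (black) and KO mice (red), with the standard error from limma. The black point lies to the right of the red point for all 28 genes, 19 of which (starred) had an unadjusted interaction p under 0.05.

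Other lists that bear on fuel use had fewer genes at this threshold, which 2.7% of all genes passed in the negative direction and 3.55% in the positive. Of 18 tested PPAR targets known from fasting, 6 had an unadjusted p under 0.05, all negative, with a median interaction of -0.20, and without the 3 libraries rich in lymphoid genes 4 were negative and 1 positive. Pdk4, the kinase that restrains pyruvate dehydrogenase, was 111, 106 and 96.5 FPKM in chow-fed WT mice and 316, 399 and 183 FPKM under fat feeding. In KO mice Pdk4 was 136, 251 and 348 FPKM under chow and 261, 186 and 208 FPKM under fat feeding. All KO high fat values of Pdk4 lay inside the wide KO chow range, and its interaction of -1.52 had a standard error of 0.47. Plin5, a coat protein of lipid droplets in oxidative tissue, was 7.66, 10.3 and 5.80 FPKM in chow-fed WT mice and 26.7, 22.1 and 18.6 FPKM under fat feeding. Plin5 in KO mice was 11.4, 8.87 and 17.9 FPKM under chow and 8.99, 10.7 and 14.2 FPKM under fat feeding, again inside the chow range. The mitochondrial carrier Slc25a34 had an interaction of -1.51. The peroxisomal enzyme Ehhadh had a diet difference of -0.13 in WT mice and of -0.82 in KO mice.

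Of 17 regulators of mitochondrial biogenesis, 4 had a negative interaction at an unadjusted p under 0.05, against 2.7% of all genes. All 4 are transcription factors or a coactivator. With quantile normalization the count was 2. Ppara, the PPAR of fasting, was 2.36, 2.65 and 1.99 FPKM in chow-fed WT mice and 2.94, 2.63 and 2.81 FPKM under fat feeding. The KO values of Ppara were 2.42, 2.64 and 3.65 FPKM under chow and 1.86, 1.23 and 1.76 FPKM under fat feeding. The WT groups overlapped and the KO groups did not, with an interaction of -0.77 and a standard error of 0.19. Esrrb and Esrrg, oestrogen-related receptors, had interactions of -0.74 and -0.60, and the coactivator Ppargc1b one of -0.43. None of the 85 tested subunits of oxidative phosphorylation and none of the 22 citric acid cycle enzymes had an unadjusted p under 0.05 in limma. Their median interactions were -0.11 and -0.10, and without replicate 1 among fat-fed WT mice the median of the subunits was 0.07, and without the 3 libraries rich in lymphoid genes it was -0.22.

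Of 22 genes of branched-chain amino acid catabolism 6 had a negative interaction at an unadjusted p under 0.05, against 2.7% of all genes. Unlike the fatty acid genes, their median diet difference was near 0 in WT mice (0.08) and below 0 in KO mice (-0.12), and 6 were lower on high fat diet in KO mice at that threshold (4.73% of all genes) against 0 in WT mice (3.7%). Bcat2, the mitochondrial transaminase at the first step, was 41.9, 37.3 and 37.9 FPKM in chow-fed WT mice and 45.6, 43.3 and 40.2 FPKM under fat feeding. In KO mice Bcat2 was 44.1, 41.6 and 41.3 FPKM under chow and 37.1, 33.8 and 33.4 FPKM under fat feeding. The KO high fat samples were the lowest 3 of the 12. Aldh6a1, of valine catabolism, Dbt, a subunit of the branched-chain ketoacid dehydrogenase, and Ivd, of leucine catabolism, had KO diet differences of -0.40, -0.32 and -0.35 and WT differences of 0.08, 0.05 and 0.00. Without the 3 libraries rich in lymphoid genes the count was 1 and the median -0.20. The count was 2 without replicate 1 among chow-fed KO mice or replicate 2 among fat-fed KO mice. It was 3 without replicate 2 or 3 among chow-fed WT mice or replicate 1 or 3 among fat-fed WT mice. With quantile normalization it was 12.

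Glycolysis and glycogen genes leaned the other way, with 22 of 28 interactions above 0 and a median of 0.34. At an unadjusted p under 0.05 there were 4 positive genes, Pgk1, Pkm2, Pgm2 and Ldha, and 1 negative, Ldhb. Over all genes the shares were 3.55% and 2.7%. Pgk1, phosphoglycerate kinase, was 957, 712 and 741 FPKM in chow-fed WT mice and 701, 614 and 635 FPKM under fat feeding. The KO mice had 524, 664 and 536 FPKM of Pgk1 under chow and 761, 721 and 837 FPKM under fat feeding. In WT mice every high fat sample lay below every chow sample, and in KO mice above. Ldha, the muscle form of lactate dehydrogenase, differed by -0.27 in WT mice and 0.38 in KO mice, and Ldhb, the heart form, by 0.55 and -0.11. The mean log2 level of the 28 genes was 7.97, 8.36 and 7.98 in chow-fed KO mice, the low values being those of the 2 libraries rich in lymphoid genes. The contractile genes of fast fibres, which live on glycolysis, summed to 83570, 107200 and 69820 FPKM in the same samples and to between 91700 and 127900 FPKM in the other 9, and their part in the result was not tested. The positive count was 1 and the median 0.12 without the 3 libraries rich in lymphoid genes, and without replicate 2 among chow-fed KO mice the count was 12. Leaving out replicate 3 among chow-fed KO mice gave 2, and leaving out replicate 2 among chow-fed WT mice, replicate 1 among fat-fed WT mice or replicate 2 among fat-fed KO mice gave 7, 8 and 7.

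Genes of lipid-associated macrophages, cells that gather in fat-laden or injured tissue and digest lipid, had interactions above 0 in 11 of 15 tested members. Of the 15, 5 had a positive interaction at an unadjusted p under 0.05 in limma, against 3.55% of all genes, with a list median of 0.56, and 0 passed the adjusted threshold. In KO mice 7 of the 15 were higher on high fat diet at that threshold (6.56% of all genes), and in WT mice 1 (4.42%). The median diet difference was 0.48 in KO mice and 0.14 in WT mice. Without replicate 1 among fat-fed WT mice the WT median was 0.45, and without replicate 2 among chow-fed KO mice the KO median was 0.19. Without the 3 libraries rich in lymphoid genes the medians were 1.05 in KO mice and 0.30 in WT mice. With the T and B cell covariate they were 1.00 and 0.26. The interaction median lay between 0.41 and 0.79 with any single library left out.

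Trem2, the lipid-sensing receptor of these cells, was 1.85, 3.05 and 1.08 FPKM in chow-fed WT mice and 0.673, 2.05 and 3.53 FPKM under fat feeding. Its KO values were 2.06, 2.01 and 2.17 FPKM under chow and 8.26, 13.3 and 7.75 FPKM under fat feeding. The KO high fat samples lay above all other 9, and the WT groups overlapped. Trem2 lies on chromosome 17 from 48346401 to 48354147 on the plus strand. The Trem2 interaction was 1.79 (standard error 0.48, limma adjusted p 0.59). Gpnmb, a glycoprotein of lipid-loaded macrophages, was 3, 5.34 and 2.78 FPKM in chow-fed WT mice and 1.60, 4.54 and 6.66 FPKM under fat feeding. KO mice had 3.43, 2.39 and 3.82 FPKM of Gpnmb under chow and 12.2, 19.3 and 12.9 FPKM under fat feeding. As for Trem2, the 3 fat-fed KO samples were the highest of the 12.

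Mmp12, the macrophage elastase, was 0.189, 0.606 and 0.175 FPKM in chow-fed WT mice and 0.195, 1.34 and 4.18 FPKM under fat feeding. In KO mice Mmp12 was 0.114, 0.0153 and 0.290 FPKM under chow and 6.44, 9.91 and 6.28 FPKM under fat feeding. Replicate 1 among fat-fed WT mice stayed at the chow level and replicate 3 came nearest to the KO samples. Atp6v0d2, a proton pump subunit of macrophages, and Lgals3, galectin-3, had interactions of 1.43 and 1.38. The count of 5 was also 5 without the 3 libraries rich in lymphoid genes, with a median of 0.74. Of 20 resident macrophage genes 1 had a positive interaction at the unadjusted threshold, Emr1, which encodes F4/80 (0.98), against 3.55% of all genes. This count was 5, 3 and 4 without replicate 2 or 3 among fat-fed WT mice or replicate 3 among fat-fed KO mice, and the list median of 0.42 was 0.07 without replicate 1 among fat-fed WT mice and 0.12 without replicate 2 among fat-fed KO mice. Of 40 lysosome genes 3 had a positive interaction at the unadjusted threshold, Atp6v0d2, Gla and the protease Ctsl. The 3 are 7.5% of the list, against 3.55% of all genes in this direction and 6.25% in either. In KO mice 7 of the 40 were higher on high fat diet at that threshold (6.56% of all genes), and in WT mice 1 (4.42%). The lysosome count was 7 without replicate 3 among fat-fed WT mice, 5 without replicate 1 among fat-fed KO mice and 10 with the T and B cell covariate.

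Of the 52 lists, that of neutrophil, mast cell and eosinophil genes, called the neutrophil list for short, had the median farthest from 0. Of the 17 tested genes of neutrophils, mast cells and eosinophils 12 had a negative and 1 a positive interaction at an unadjusted p under 0.05. Over all genes the shares were 2.7% and 3.55%. The list median was -2.16, and 4 of the 17 interactions were above 0. The median diet difference was 1.70 in WT mice and -0.52 in KO mice. Without the 3 libraries rich in lymphoid genes these diet medians were 1.74 in WT mice and 0.001 in KO mice. S100a9, a subunit of the calprotectin complex of neutrophil cytosol, was 1.09, 7.61 and 2.37 FPKM in chow-fed WT mice and 378, 39.9 and 148 FPKM under fat feeding. In KO mice S100a9 was 42.5, 5.22 and 16 FPKM under chow and 14.8, 2.07 and 2.19 FPKM under fat feeding. S100a9 lies on chromosome 3 from 90692632 to 90695721 on the minus strand, near S100a8 from 90668978 to 90670035 on the plus strand. The WT high fat samples spread widely, yet each lay above the WT chow samples, and the KO groups overlapped. Its interaction was -6.71 (standard error 1.35, limma adjusted p 0.41).

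Camp, the cathelicidin of secondary granules, was 0.113, 1.58 and 0.209 FPKM in chow-fed WT mice and 94.6, 9.08 and 34.9 FPKM under fat feeding. KO mice had 8.62, 0.780 and 2.52 FPKM of Camp under chow and 2.90, 0.282 and 0.221 FPKM under fat feeding. Replicate 1 was again the highest WT high fat sample and replicate 1 the highest KO sample on each diet. S100a8, Ngp, Ltf, Lcn2 and Retnlg had interactions of -6.20, -5.77, -3.44, -3.28 and -3.77, and the primary granule genes Mpo and Elane of -2.16 and -1.99.

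The 26 genes of this list with values, tested or not, summed to 1238, 159.9 and 494.8 FPKM in fat-fed WT mice. They summed to between 26.6 and 77.1 FPKM in chow-fed WT mice. In chow-fed KO mice the sum was 219.1, 63.2 and 128 FPKM, where the 2 higher values were those of the libraries rich in lymphoid genes. In fat-fed KO mice it was between 40.2 and 89.6 FPKM. Whether the number of neutrophils or blood in the tissue differed between mice was not tested. Alas2, an enzyme of haem synthesis in red cell precursors, had an interaction of the same sign, -1.23. Without the 3 libraries rich in lymphoid genes 7 of the 17 had a negative and 1 a positive interaction under the unadjusted threshold, with a median of -1.74. Ear11, a ribonuclease of the eosinophil family, was the positive gene, at 1.84, 1.83 and 1.21 FPKM in fat-fed KO mice and at most 0.558 FPKM in the other 9 samples. It entered the test through that group alone, so that its call is no support for a difference.

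**Figure D4:**
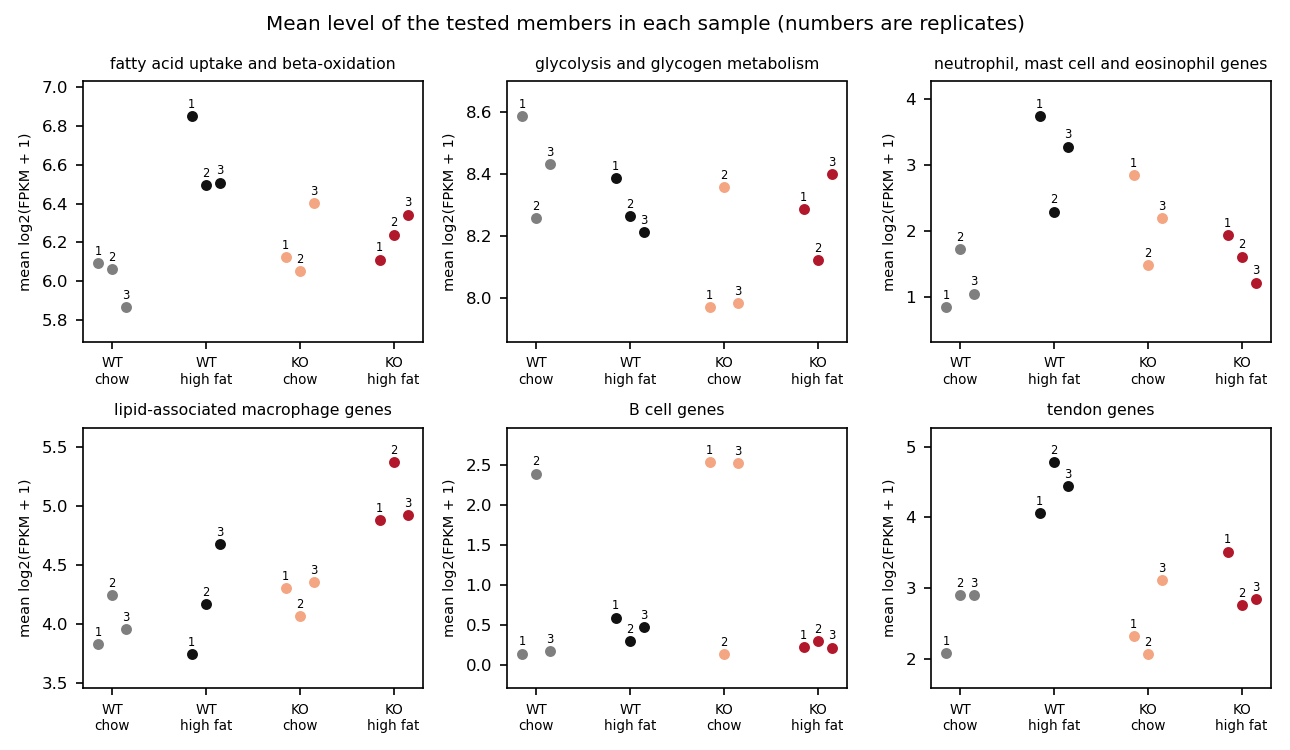
Mean log2(FPKM + 1) of the tested members of 6 lists in each of the 12 samples, with the replicate number above each point. The fatty acid list, the list of neutrophil, mast cell and eosinophil genes and the tendon list had their highest group mean in fat-fed WT mice. Lipid-associated macrophage genes had theirs in fat-fed KO mice, and B cell genes were highest in 3 chow-fed libraries.

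Of 27 tested collagens 5 had a positive and 3 a negative interaction at an unadjusted p under 0.05, against 3.55% and 2.7% of all genes. The positive ones were the basement membrane chains Col4a1 and Col4a2 (0.52 and 0.53), Col5a3 (0.62), Col6a2 (0.57) and Col15a1 (0.52), and the negative ones Col11a1 (-0.72), Col11a2 (-0.93) and Col8a2 (-0.95). Col11a1 and Col8a2 reached 1 FPKM in the 3 fat-fed WT samples alone and entered the test through them, so that their calls are no support for a difference. Col5a3 was 5.03, 6.15 and 7.87 FPKM in chow-fed WT mice and 3.57, 4.45 and 5.27 FPKM under fat feeding, and in KO mice 6.45, 6.70 and 5.72 FPKM and then 6.80, 7.44 and 7.69 FPKM. WT samples overlapped between diets, and the KO high fat samples lay just above the KO chow samples. The list median was 0.23, and 0.09 without the 3 libraries rich in lymphoid genes. The positive count was 11 without replicate 3 among fat-fed WT mice. It was 1 or 2 without any other single library but replicate 1 among chow-fed WT mice or replicate 2 among fat-fed KO mice. With median-of-ratios size factors it was 3, and with quantile normalization 1.

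All 11 tested tendon genes had a negative interaction, with a median of -1.38. Of these 3 had an unadjusted p under 0.05, against 2.7% of all genes in this direction. They were Kera, Ecm2 and Col11a1, the last entered through the fat-fed WT samples alone. The count was 8 without replicate 1 among fat-fed KO mice, 7, 5 and 1 without replicate 3, 2 or 1 among chow-fed WT mice, 6 and 1 without replicate 1 or 3 among fat-fed WT mice, and 5 and 7 without replicate 1 or 2 among chow-fed KO mice. The median was -0.89 without the 3 libraries rich in lymphoid genes, -0.87 without replicate 2 among fat-fed WT mice and -0.88 without replicate 1 among chow-fed WT mice, and all 11 members were below 0 in each of these fits. In WT mice 10 of the 11 had high fat samples above all chow samples (6.2% of all genes), and in KO mice 1 (10.7%). Tnmd, tenomodulin, a defining gene of tendon cells, was 0.888, 5.53 and 5.56 FPKM in chow-fed WT mice and 20.1, 23.5 and 23.3 FPKM under fat feeding. In KO mice Tnmd was 2.1, 1.73 and 4.95 FPKM under chow and 10.5, 5.36 and 5.02 FPKM under fat feeding. Both genotypes had higher values on high fat diet without overlap, and its interaction of -1.38 had a standard error of 0.65. Whether more tendon was dissected with the muscle in some mice was not tested.

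Of 19 clock genes 3 had a positive and 1 a negative interaction at an unadjusted p under 0.05, against 3.55% and 2.7% of all genes. The positive count was 1 without replicate 1 among chow-fed WT mice, replicate 1 among chow-fed KO mice or replicate 3 among fat-fed KO mice. Bhlhe41, a transcriptional repressor of the clock, was 16.8, 16.5 and 17.2 FPKM in chow-fed WT mice and 20.7, 14.6 and 16.6 FPKM under fat feeding. The KO values of Bhlhe41 were 12, 14.2 and 13.4 FPKM under chow and 23.2, 18.9 and 23.9 FPKM under fat feeding. In KO mice the diets were apart, and in WT mice the chow values lay inside the high fat range. Bhlhe40 and Nr1d1, repressors too, had interactions of 0.47 and 0.83, and Per1, a core clock gene that glucocorticoids induce, one of -0.90 with a diet difference of 0.86 in WT mice and -0.04 in KO mice. The labels give no hour of dissection.

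Several single genes of muscle mass and stress had diet differences that were unlike in the genotypes at an unadjusted interaction p under 0.05 in limma. Mstn, myostatin, which limits muscle growth, was 57.0, 40.4 and 45.2 FPKM in chow-fed WT mice and 17.9, 34.8 and 25.2 FPKM under fat feeding. In KO mice Mstn was 23.2, 37.6 and 25.1 FPKM under chow and 36.2, 26.9 and 42.8 FPKM under fat feeding. The WT groups were apart and the KO groups overlapped, with an interaction of 1.18 and a standard error of 0.36. The 2 low KO chow values of Mstn were those of the libraries rich in lymphoid genes, and replicate 2 lay within the KO high fat range. Without those 3 libraries its interaction was 0.87. Klf15, a glucocorticoid-responsive regulator of amino acid and lipid use, was 16.1, 13.3 and 14.7 FPKM in chow-fed WT mice and 22.9, 18.7 and 17.8 FPKM under fat feeding. The KO mice had 16, 18.4 and 17.3 FPKM of Klf15 under chow and 15, 14.2 and 15.5 FPKM under fat feeding, so that both pairs of groups were apart in opposite order. Nqo1, a quinone reductase and NRF2 target, had an interaction of 0.73, and the glutathione transferases Gsta3 and Gsta4 of -1.08 and -0.42. Of 33 genes of insulin signalling and glucose uptake 2 had a negative interaction at the unadjusted threshold, Tbc1d1, which restrains the glucose transporter of muscle (-0.81), and Socs2, an inhibitor of cytokine signalling (-0.85), which is 6.06% of the list against 6.25% of all genes.

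Of genes near the deleted chaperones in function, some lists had no called member. None of the 6 tested small heat shock proteins, the 67 chaperones of the HSP70, HSP90 and HSP40 families or the 30 genes of endoplasmic reticulum stress had an unadjusted p under 0.05 in limma, with medians of 0.12, 0.05 and -0.10. Of 23 Z-disc and intermediate filament genes 3 had a positive interaction at that threshold, Sync, Synpo2l and Igfn1, which is 13% of the list against 3.55% of all genes. The count was 0 without the 3 libraries rich in lymphoid genes, 8 without replicate 2 among chow-fed KO mice and 6 with quantile normalization. Synpo2l, an actin-bundling Z-disc protein, was 64.5, 55.6 and 60.4 FPKM in chow-fed WT mice and 62.7, 64.9 and 57.4 FPKM under fat feeding. In KO mice Synpo2l was 46.1, 60.4 and 50 FPKM under chow and 78.2, 69.3 and 73.8 FPKM under fat feeding. The WT samples overlapped, and the KO high fat samples lay above all the other 9.

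Over the 52 lists, medians ran from -2.16 to 0.56 and 28 lay within 0.2 of 0. In 20 lists no member had an unadjusted p under 0.05, and in 23 the share of members under it was above the 6.25% of all genes. The lists held 1290 of the tested genes. The 83 cytosolic and 71 mitochondrial ribosomal protein genes had medians of 0.00 and 0.01 with no member under the threshold. The T cell, B cell and lymph node lists had medians of -0.77, -0.90 and -1.21, and Cd28 was the 1 member under the threshold. These medians include the 3 libraries rich in lymphoid genes and are not given without them. In KO mice the mean log2 level of the B cell genes was 2.53, 0.14 and 2.53 under chow. Under fat feeding it was 0.22, 0.29 and 0.21. The lymph node genes summed to between 117.2 and 210.8 FPKM in the 3 libraries set apart above and to between 9.58 and 18.1 FPKM in the other 9. Of 16 nerve and Schwann cell genes none was under the threshold, with a median of -0.68.

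**Figure D5:**
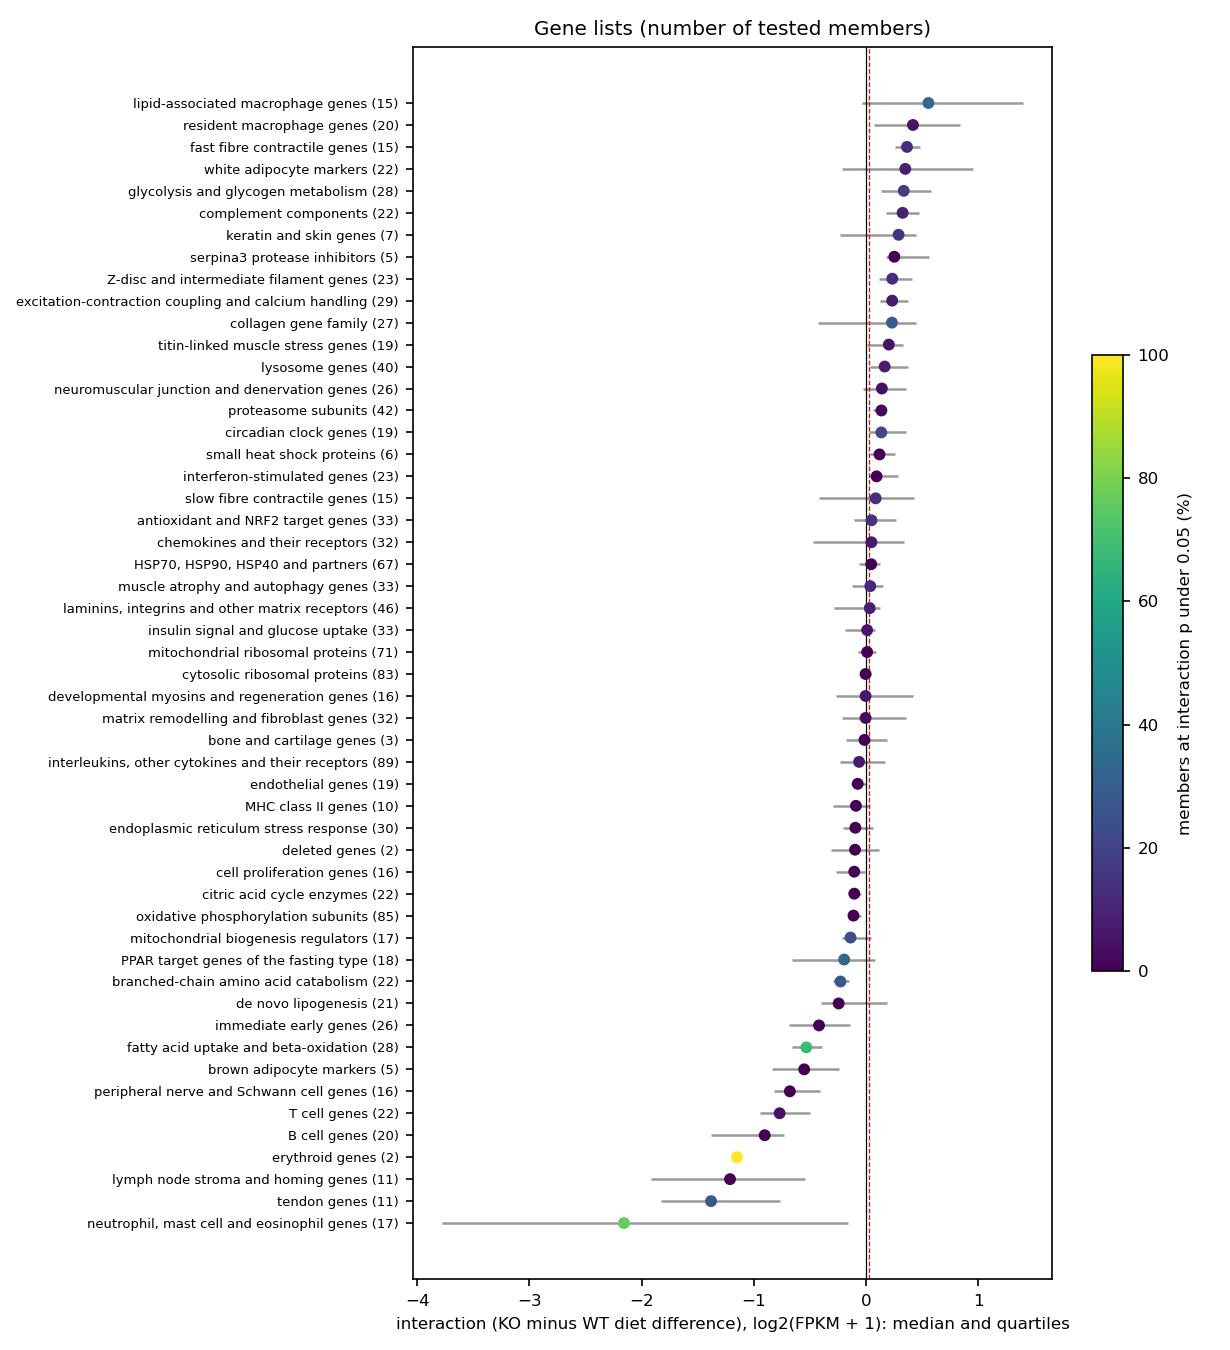
Median interaction (point) and quartiles (line) of the tested members of 52 gene lists on the log2(FPKM + 1) scale, with the number tested in brackets and the share of members at an unadjusted p under 0.05 as colour. The dashed line is the median of all genes at 0.03, near which 28 lists lay within 0.2 of 0. The list of neutrophil, mast cell and eosinophil genes was lowest at -2.16 and that of lipid-associated macrophage genes highest at 0.56.

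The 12 genes that passed the adjusted threshold for diet in WT mice were read in KO mice too. They were BC048679, Ech1, Chodl, Decr1, Dhrs4 and Hoxa10, which rose, and Rhbdl3, Cd28, Arsi, Gadl1, 2610019F03Rik and Npnt, which fell. As given above, these calls depend on single libraries. The KO difference was nearer to 0 than the WT difference for all 12, as their choice by the WT difference favours. BC048679 was 1.38, 2.23 and 1.67 FPKM in chow-fed WT mice and 21.9, 19.8 and 18.2 FPKM under fat feeding. In KO mice BC048679 was 3.84, 3.72 and 7.19 FPKM under chow and 9.81, 19.3 and 17.1 FPKM under fat feeding. Its samples did not overlap between diets in either genotype, with differences of 2.93 in WT mice and 1.47 in KO mice. Cd28, a costimulatory receptor of T cells, was 3.78, 3.61 and 2.99 FPKM in chow-fed WT mice and 0.386, 1.30 and 0.907 FPKM under fat feeding. KO mice had 3.65, 3.87 and 3.51 FPKM of Cd28 under chow and 1.69, 1.81 and 2.28 FPKM under fat feeding. All chow samples were above all high fat samples, the 3 libraries rich in lymphoid genes were not set apart for Cd28, and its interaction was 0.60 with a standard error of 0.23. For Npnt, nephronectin, a ligand of integrins, the WT difference was -1.66 and the KO difference -0.33.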

How the data were processed

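The authors sequenced total RNA with paired-end reads and deposited 1 table per library with FPKM values per gene symbol, without pooling replicates. Per the labels' processing notes the tools were TopHat2 2.0.8b and Cuffdiff 2.1.1 with build mm10. The unit was taken from these tools and from the values, as neither the files nor the text of the methods name it. The annotation and filters are not given in the sources used here. Each table has 23179 rows, and for a repeated symbol the highest row was used. Depth in reads is unknown, so FPKM of low genes are the least precise. Apart from the conflicting genotype label, the labels tell the mice of a group apart only by a replicate number. The p-values weigh a difference between groups against the spread between these samples.

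Samples were grouped by title, since the genotype label conflicts with it in 6. Values were taken to log2(FPKM + 1), where a fold change of a low gene is understated, and fitted with limma 3.58.1 in R 4.3.3 with 4 group means, 8 residual degrees of freedom and an intensity trend. The Benjamini-Hochberg method was applied over 11945 genes, with a threshold of 0.05. All p-values of the report come from this fit and are two-sided. The fit was tested on simulated data.

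The lists, named genes and tests were chosen with earlier results of these data known, and lists were described by counts and medians without a set test. Named genes are Cryab and Hspb2, the 12 genes with the lowest interaction p in each direction, the 8 reversed genes whose smaller diet difference was largest, up to 12 genes past the adjusted threshold per comparison and up to 4 genes per list by lowest p. Further list members, and the markers Ms4a1, Ucp1 and Tnmd, were named after their values were seen. Rows with several symbols were tested but are not named or counted in lists. Promoters came from a RefSeq table of GRCm38.p6. Other steps used Python 3.11.15, pandas 2.3.3 and NumPy 2.4.6.

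Alternatives were a pseudocount of 0.1, a square root scale, no filter, a minimum of 1 FPKM in every sample, 2 normalizations, the replicate number as a block, 2 settings of variance moderation, a T and B cell covariate, genotype by label and each sample left out in turn. Leaving out 3 libraries was added after the data were seen.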

Additional observations from a re-analysis of the deposited data

Results flagged for a closer look

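11 genes had diet groups that were apart in both genotypes and in opposite order. The difference between the genotypes was tested by the limma interaction for each, and 0 passed the adjusted threshold. The interactions on the log2 scale were 1.002 for Cited4, 0.531 for D930014E17Rik, -0.941 for Fam69b, 0.915 for Hfe, -0.604 for Klf15, -1.341 for Pank1, 0.727 for Pgk1, 0.881 for Serf1, 0.578 for Ttyh2, 1.008 for Unc119 and 0.965 for Vipr2. Only genes named by the rule were looked at in this way, and over all tested genes 56 (0.469%) had this order. Cited4, a transcriptional coactivator, was 17.4, 12.1 and 10.7 FPKM in chow-fed WT mice and 8.99, 9.09 and 7.34 FPKM under fat feeding. In KO mice Cited4 was 7.15, 7.33 and 7.60 FPKM under chow and 11.7, 8.09 and 11.1 FPKM under fat feeding. The KO chow samples were below all but 1 of the other 9, WT replicate 3 under fat feeding. Ttyh2, of a family of chloride channels, was 8.58, 8.06 and 8.06 FPKM in chow-fed WT mice and 5.93, 6.67 and 6.84 FPKM under fat feeding. The KO values of Ttyh2 were 8.25, 7.58 and 7.04 FPKM under chow and 9.09, 9 and 10.2 FPKM under fat feeding. The chow samples of both genotypes overlapped, with the high fat samples on either side.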

How the results depend on the processing

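Of 109 named genes followed through the alternatives, 1 interaction changed sign, that of Hspb2, at -0.154 on the square root scale. Genotype by label, 1 of the 24 alternatives, was left out of this comparison of single genes. Leaving out single libraries moved the adjusted interaction count between 0 and 1, the 1 being Dusp15 without replicate 3 among chow-fed WT mice, and the unadjusted count between 533 (without replicate 1 among chow-fed WT mice) and 1306 (without replicate 2 among chow-fed KO mice). For diet in WT mice the adjusted count was 1 without replicate 1 or 2 among chow-fed WT mice, 7 without their replicate 3, 32 without replicate 2 among fat-fed WT mice, and 6 and 24 without replicate 1 or 3 among chow-fed KO mice. In KO mice it was 10 and 1 without replicate 1 or 3 among fat-fed WT mice and 4 without replicate 2 among chow-fed KO mice. The ranges were 1 to 32 adjusted and 704 to 1115 unadjusted for diet in WT mice, 0 to 10 and 670 to 2481 in KO mice, 16 to 57 for reversals, 11 to 21 for fatty acid genes, 2 to 12 for glycolysis, 4 to 6 for lipid-associated macrophages and 11 to 12 for neutrophils.

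With no filter there was 1 adjusted interaction gene, 4930503E14Rik, at most 0.135 FPKM in any sample, and 1144 unadjusted, 46.0% of them positive against 56.8% with the filter. There were 1483 unadjusted genes in WT mice, 6 adjusted and 2028 unadjusted in KO mice, and 43 reversals. With 1 FPKM in every sample, which tests fewer genes, 2 lipid-associated macrophage and 1 neutrophil gene were called. The square root scale gave 2 glycolysis genes, and quantile normalization 7 and 9 adjusted genes in KO mice. Without the intensity trend 2 were adjusted in KO mice.

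Same-numbered samples of different groups deviated from their group means with a mean correlation of -0.074 (lowest -0.806), so the numbers were not taken to pair the mice. With the replicate number as a block, 0 interaction genes passed the adjusted and 571 the unadjusted threshold, and 7 genes passed for diet in WT mice. Genotype by label gave 1066 unadjusted interaction genes, 43.6% positive, and 0 adjusted genes in WT mice. The T and B cell covariate gave 36 adjusted genes in WT mice, 3 adjusted and 766 unadjusted in KO mice, 11 reversals and 8 lipid-associated macrophage genes. Without the 3 libraries rich in lymphoid genes, chosen after seeing the data, there were 318 unadjusted interaction genes, 1 adjusted gene in WT mice, 404 unadjusted in KO mice, 12 reversals, 2 fatty acid, 1 glycolysis and 7 neutrophil genes. The causes were not tested. With 3 mice per group, an interaction under about 0.385 (log2) lies within the interval of a typical gene.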

Other observations

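Some single genes of lists not described above had values in fat-fed KO mice apart from the other samples, while the share of called members in their lists was 6.74% for interleukins and other cytokines, 9.09% for complement and 3.85% for denervation genes, beside 6.25% of all genes. Il1rn, the interleukin-1 receptor antagonist, was 0, 0.292 and 0.0458 FPKM in chow-fed WT mice and 0.381, 0.355 and 0.445 FPKM under fat feeding. In KO mice Il1rn was 0.210, 0.168 and 0.319 FPKM under chow and 1.27, 1.69 and 1.53 FPKM under fat feeding, above all the other 9 samples. It entered the test through these 3 samples alone, so that its values are a description. C3ar1, a complement receptor of myeloid cells, had an interaction of 0.83. Hdac9, a histone deacetylase of the denervation response, was 2.20, 2.13 and 1.98 FPKM in chow-fed KO mice and 2.81, 3.14 and 3.25 FPKM under fat feeding, with WT values between 2.20 and 2.67 FPKM on either diet. Mest, a marker of expanding fat cells, was 7.49, 4.44 and 2.66 FPKM in chow-fed KO mice and 17.1, 19.6 and 23.2 FPKM under fat feeding, while in WT mice it ran from 2.62 to 13.4 FPKM over both diets. Of the 22 tested white adipocyte markers 2 had an unadjusted interaction p under 0.05, Mest (2.05) and the lipase Pnpla2 (-0.62). This is 9.09% of the list against 6.25% of all genes. The 23 markers with values, tested or not, summed to between 3306 and 5466 FPKM in chow-fed and between 3437 and 6038 FPKM in fat-fed WT mice. In KO mice they summed to between 5354 and 9004 FPKM under chow and between 4789 and 5936 FPKM under fat feeding.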
